A study of Homo sapiens with 9 samples.

Results

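Human tongue squamous carcinoma cells of the Cal-27 line that had received exosomes from cells labelled hOMF were compared with the same line given no exosomes, across every gene of the deposited table and across whole gene families. Exosomes are small vesicles that cells release and that other cells can take up with their RNA, protein and lipid cargo. The labels write the source cells as hOMF and also as hMOF and spell neither name out. All 16366 genes of the 3 hOMF exosome libraries and the 3 control libraries entered, out of 9 libraries in the study, and 12470 genes had enough reads to test. The other 3 libraries came from Cal-27 cells given exosomes labelled CAF, and they helped to estimate the spread. All groups carried the wild-type genotype and grew in DMEM of high glucose content that held fetal bovine serum. Exosome treatment lasted 48 h, the controls are labelled Normal Control, and no time is given for them. The study therefore describes 1 established line, and the source cells of the exosomes were not measured. The labels call the 3 libraries of a group replicates without naming separate cultures. All p-values thus rest on the spread among libraries, which may be technical.

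Squamous carcinoma cells of the tongue keep much of the program of stratified epithelium. They make keratins, S100 proteins and antimicrobial proteins, secrete chemokines and interleukins, and divide through the cyclin and E2F machinery that switches on replication genes before S phase. Their lipid synthesis is driven by sterol regulatory element-binding proteins, of which SREBF1 encodes the form tied most closely to fatty acids, and by liver X receptors, which sense oxidised sterols.

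Sequencing covered polyadenylated RNA from libraries that kept strand, and the libraries held 11185672 to 12779101 assigned reads each. Replicates of the hOMF exosome and control groups correlated at a Spearman rho of 0.992 to 0.996 across genes. The first principal component carried 38.2% of the variance and placed the controls at 19.5, 22 and 30.9 and the hOMF exosome libraries at -17.3, -15.6 and -10.4. All 10 markers of squamous carcinoma cells were expressed. Of 17 fibroblast markers in the table, 10 had enough reads to test and 6 stayed under 1 CPM (counts scaled to a common library total) in all 6 libraries. The 4 fibroblast markers that passed are described with the collagens. The adipocyte markers had too few reads to test. Of 3 endothelial markers tested 1 was called lower, and the list summed to 17.7 to 21.3 CPM in treated libraries and 22.3 to 31.4 CPM in controls. Of 4 leukocyte markers tested 2 were called lower, among them CORO1A, whose call was lost without control 3, hOMF 2 or hOMF 3, by DESeq2 and voom, and on FPKM. The leukocyte list summed to 40.4 to 46.2 CPM in treated libraries and 44, 44.5 and 69.1 CPM in controls, the last in control 3. Whether reads were counted by strand is not stated in the labels, and 20 of the 162 genes described with a change carry exons of another gene of the table on the opposite strand, with which their reads may be mixed. Those genes are ADA, ATF5, CCNE2, CIITA, FADS2, FEN1, FTH1, KREMEN2, LPCAT3, MAFK, MRPL49, NOP16, PRPF39, SCNN1A, SLC38A6, SSC4D, TNFRSF12A, TUBB4B, TUBB6 and UBE2N.

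Control 3 stood apart from the other controls on the second component and held transcripts of another cell type. VIM, the vimentin of mesenchymal and blood cells, measured 38.1 CPM in control 3 and 0.229 to 0.632 CPM in the other 5 libraries of the comparison, and PTPRC, the pan-leukocyte antigen CD45, 7.5 CPM against at most 0.0909 CPM. CORO1A, an actin-binding protein of leukocytes, measured 17.1 CPM against 1.91 to 4.61 CPM. Among all genes of the table, 67 reached 5 CPM in control 3 and stayed under 1 CPM in the other 8 libraries, while each of those 8 libraries had 0 such genes. Among the 67, named after their values were seen, ELANE, AZU1, PRTN3 and CTSG, which encode granule proteins of neutrophils and their precursors, measured 51.6, 37.5, 31.9 and 31.4 CPM. None (0) of the 67 had enough reads in enough libraries to be tested. The part of these transcripts in the decreases against control was not tested, and the results without control 3 are therefore given beside those of all libraries. Without control 3, 997 genes were called higher and 1017 lower. Of the 2896 calls described next, 1877 were kept in the same direction, 932 increases and 945 decreases. Leaving out another library also lost calls. Fits without control 1, control 2, hOMF 1, hOMF 2 or hOMF 3 shared 2304, 1912, 1959, 1673 and 2298 of the 2896. Of the 162 genes described below with a change, all but ZNF114 kept their call without control 3.

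After hOMF exosomes a large number of transcripts differed from control by small amounts, with lipid, xenobiotic, collagen and antigen presentation genes on the upper side and replication, ribosome assembly, interleukin and antimicrobial genes on the lower side. Of the 12470 genes tested, 2896 passed (23.2%), of which 1475 were higher (11.8%) and 1421 lower (11.4%) in hOMF exosome libraries (edgeR quasi-likelihood test, adjusted p under 0.05). Of the called genes, 2115 (73%) changed by less than 1.5-fold. The median log2 change was 0.46 among the genes called higher, -0.37 among those called lower and 0.00 over all genes tested. Library totals without trimmed-mean (TMM) scaling shifted that overall median by 0.06 and gave 2006 higher and 989 lower calls. The deposited FPKM values gave 1812 and 824, and correcting for transcript length and GC content gave 1560 and 2092. Without hOMF 2, which moved the totals most, 884 genes were called higher and 811 lower. Here and below, values are CPM in libraries 1, 2 and 3 of a group in that order, changes are log2 differences of hOMF exosome minus control with their standard error (SE), and adjusted p-values are those of the edgeR test.

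The balance between increases and decreases shifted with the level of a transcript. Genes were placed in 5 classes of 2494 by mean CPM over all libraries, with median levels of 2.85, 12.9, 27.9, 55.4 and 152 CPM. From the lowest class to the highest, genes called higher made up 11.8%, 14.3%, 13.1%, 10.4% and 9.5% of each class. Genes called lower made up 4.61%, 8.18%, 10.9%, 14.2% and 19.1%. Increases were therefore 71.9% of the calls in the lowest class and 33.2% in the highest. The median change of all tested genes went from 0.14 in the lowest class to -0.06 in the highest. Changes of at least 2-fold sat mostly at low levels, with 128 of 160 such increases and 50 of 60 such decreases in the lowest class. The median absolute change of called genes fell from 0.94 there to 0.32 in the highest class, while the median SE over all genes fell from 0.25 to 0.08, so only large changes could pass at low level. Without TMM scaling the share of calls that were increases ran from 78.9% to 52.6%, with the GC and length correction from 66.7% to 27.5%, and without control 3 from 72.4% to 29.7%.

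**Figure D1:**
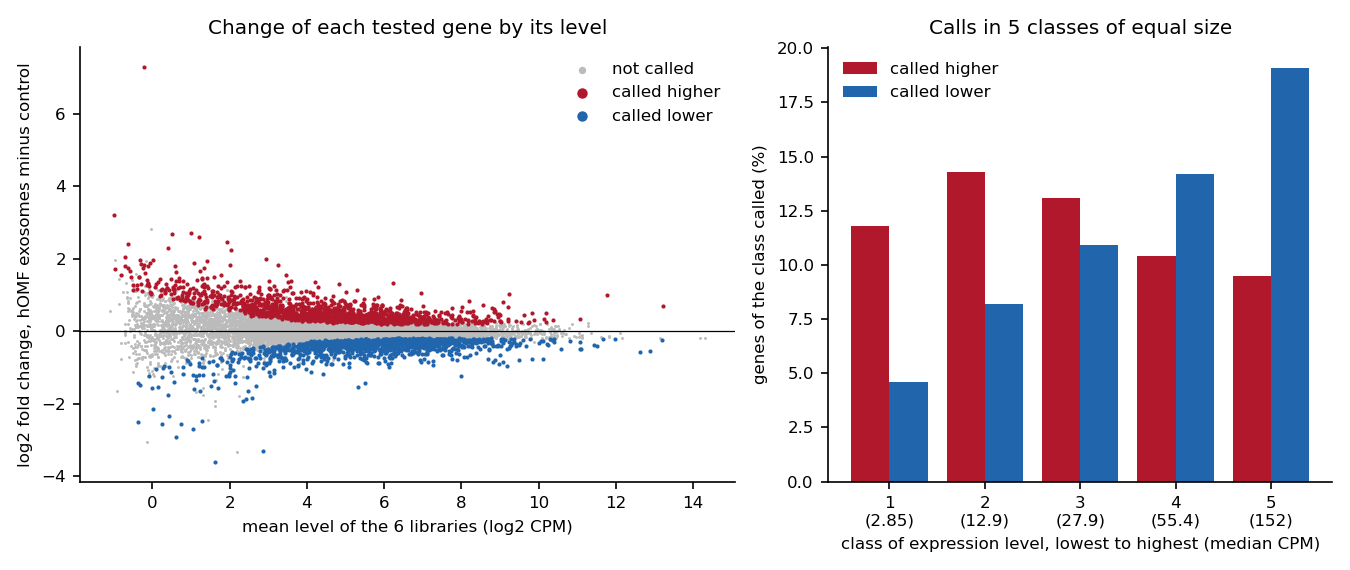
Change against level for all 12470 tested genes, as the log2 difference of hOMF exosome minus control against the mean log2 CPM of the 6 libraries, with bars giving the percentage of genes called higher and lower in each of the 5 level classes. The share called lower rises from 4.61% in the lowest class to 19.1% in the highest.

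In the lowest class, the largest and clearest increases included lipid and xenobiotic genes. ABCA1, which exports cholesterol to lipoproteins, measured 5.99, 6.47 and 6.8 CPM after hOMF exosomes and 1.36, 0.903 and 1.2 CPM in controls. Every treated library lay several-fold above every control, a change of 2.46 (SE 0.23, adjusted p = 8.65e-06). CYP1A1, an inducible enzyme that oxidises aromatic compounds, measured 7.11, 6.82 and 6.5 CPM against 2, 1.26 and 1.04 CPM, a change of 2.25. KLRK1, which encodes an activating receptor best known from natural killer cells, rose by 1.83. On the lower side stood CCNE2, a cyclin that drives entry into S phase, with 1.65, 2.89 and 3.21 CPM against 8.45, 9.03 and 10.7 CPM, a change of -1.85. CTXN1 changed by -1.14.

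The genes named for each level class were chosen among those whose groups did not overlap, so their separation is no finding of its own. The same largely holds for genes named from the families, most of them taken by smallest p among called genes. Of all 2896 called genes only 82 had groups that overlapped. In the middle classes, PADI1, an enzyme that converts arginine to citrulline in epithelial proteins, measured 12, 12.7 and 12 CPM against 3.36, 3.61 and 2.23 CPM, a change of 2.00 (SE 0.17, adjusted p = 4.14e-06). Its neighbour in the genome PADI3 belonged to the highest class, with 384, 375 and 369 CPM against 204, 229 and 204 CPM, a change of 0.82. The 3 treated libraries of both genes lay above all controls. RAB26, a small GTPase of secretory granules, rose by 1.35, and NTF4, a neurotrophin, by 1.23. ATF5, a stress-responsive transcription factor, changed by -0.93, and CREB5, another bZIP factor, by -1.16. TSC22D3, a leucine zipper protein known as a glucocorticoid target, measured 113, 104 and 107 CPM against 48, 44.3 and 37.7 CPM. Its change of 1.32 (SE 0.08, adjusted p = 3.04e-07) was among the best-supported increases of its class. Beside it stood SSC4D at 1.14 and VIPR1, a receptor for vasoactive intestinal peptide, at 0.88. Most called glucocorticoid and FOXO targets went the other way from TSC22D3. Of 31 tested 3 rose (9.68%) and 11 fell (35.5%), with a median of -0.05.

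At the top of the abundance range, PPIF, the mitochondrial cyclophilin, measured 106, 96.8 and 114 CPM against 200, 209 and 202 CPM in controls. SLC43A3, a purine base transporter, measured 309, 309 and 300 CPM against 496, 554 and 525 CPM. Treated libraries of both genes lay below every control, with changes of -0.94 and -0.78.

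Among 133 gene families or functions with at least 10 tested members, the share of members called higher was above the background of 11.8% in 62 and the share called lower was above 11.4% in 76. It exceeded its background more than 2-fold for 24 families on the higher side and 34 on the lower side. Most families, 101 of them, held called members in both directions. No member passed in the cytochrome c oxidase subunits and in the desmosome and adherens junction genes. Where a family described here had 0 calls in 1 direction only of the edgeR test, at most 2 of its members lay on that side at an unadjusted p under 0.05, the interleukins and complex I subunits having 2 and DNA replication, cytochromes P450, MHC class II, antimicrobial proteins and connexins 0. DESeq2 called 1 complex I subunit on that side and otherwise 0. Leaving out 1 treated or control library lowered the calls over all genes, from 1475 higher and 1421 lower. It left 1316 higher and 1302 lower without control 1, 1019 and 986 without control 2, and 997 and 1017 without control 3. The numbers were 1042 and 1019 without hOMF 1, 884 and 811 without hOMF 2, and 1415 and 1246 without hOMF 3. Family counts without 1 of these libraries are to be read beside them. Without control 3, DNA replication had 24 decreases with a median of -0.32 (32 and -0.43 with all libraries), G2 and mitosis 16 with -0.19 (22 and -0.25) and ribosome biogenesis 18 with -0.16 (33 and -0.21). Tubulins had 9 decreases with -0.32 (10 and -0.41), and cholesterol synthesis 6 increases with 0.08 (9 and 0.11). The counts and medians moved less for fatty acid synthesis (13 increases, median 0.23), cytochromes P450 (6 and 0.47), MHC class II (8 and 0.38) and collagens (8 and 0.31). The same held for interleukins (8 decreases, -0.43), dual-specificity phosphatases (10 and -0.45) and antimicrobial proteins (6 and -0.65).

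**Figure D2:**
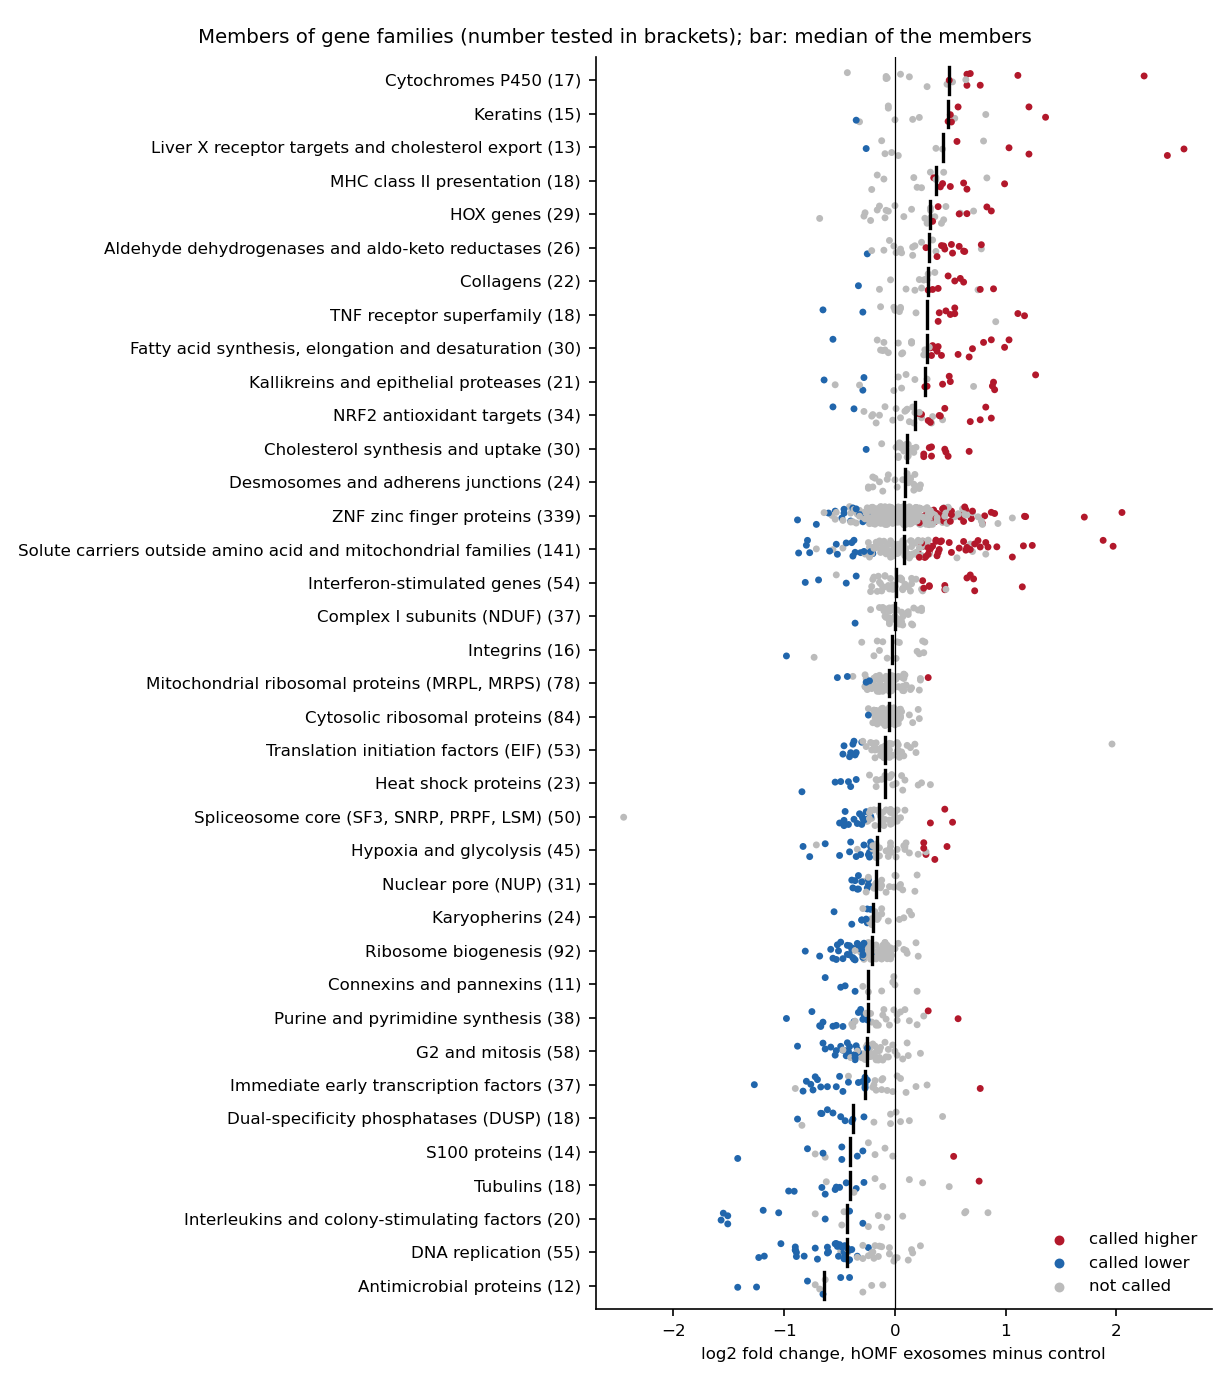
Log2 change of each tested member in 37 families, hOMF exosome minus control, with a bar at the family median. Members of fatty acid synthesis (median 0.29) and cytochromes P450 (0.49) sit mostly to the right, and those of DNA replication (-0.43) and antimicrobial proteins (-0.64) to the left.

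**Figure D3:**
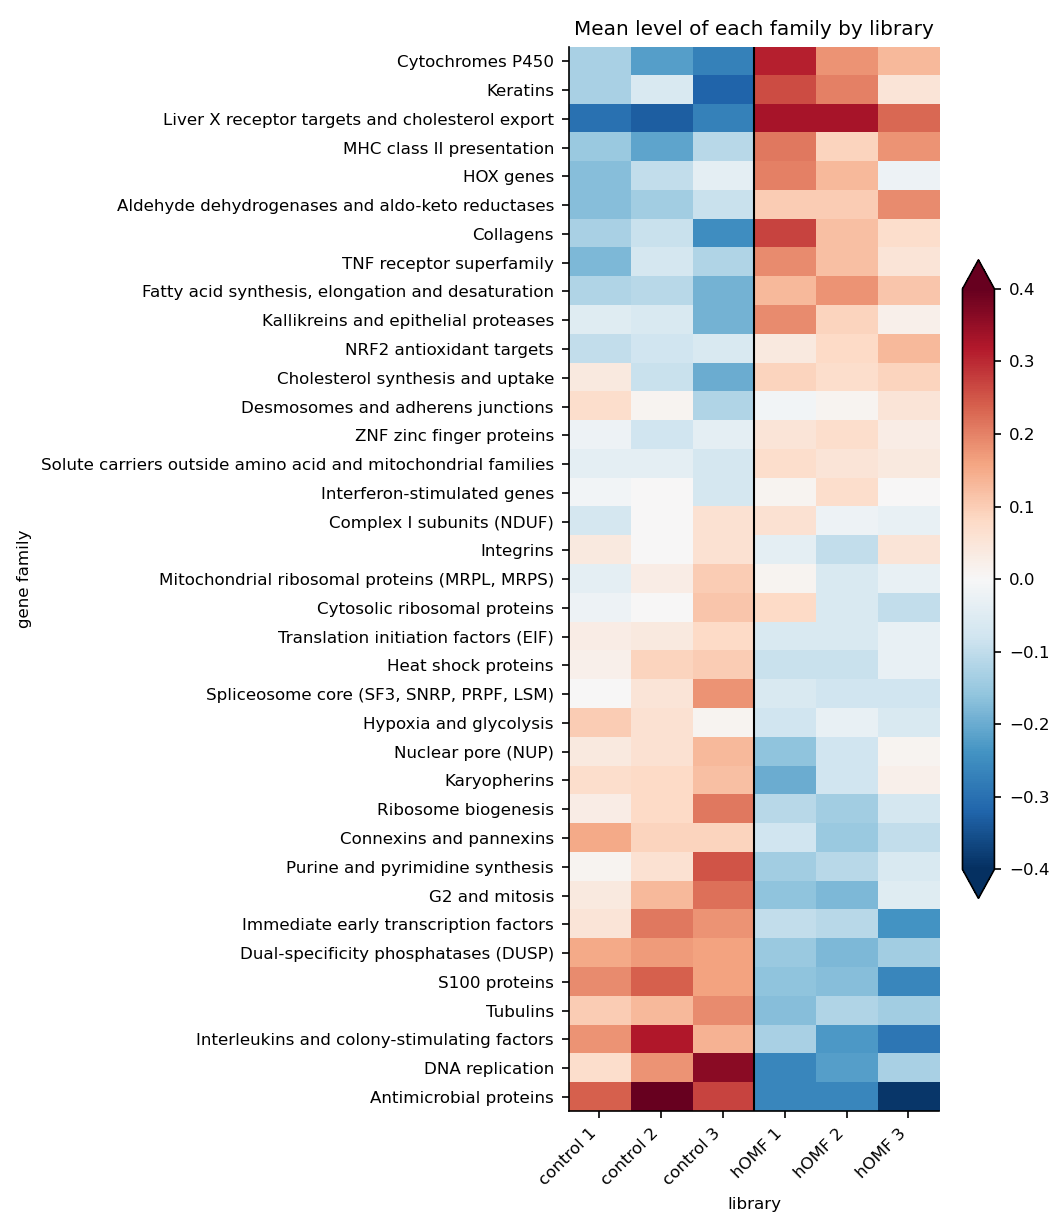
Mean deviation of each family's tested members from their average over the 6 libraries, in log2 units, with 1 column per library and the controls on the left. Fatty acid synthesis lies between 0.11 and 0.18 in the treated libraries and between -0.19 and -0.11 in the controls, while ribosomal proteins overlap between the groups.

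Fatty acid synthesis was the family with the broadest increase among the lipid genes. Of its 30 tested members, 14 rose and 1 fell, so 46.7% were called higher, and the median change was 0.29. ACSS2 makes acetyl-CoA from acetate and is shown because its promoter holds a CCAAT box, the binding element of NF-Y. The window from RefSeq (GRCh38.p14) runs from 150 bases before to 20 after the start site, the capitals mark the box read on the other strand, and the box begins 123 bases upstream.
ACSS2 promoter, chr20:34874839-34875008, plus strand: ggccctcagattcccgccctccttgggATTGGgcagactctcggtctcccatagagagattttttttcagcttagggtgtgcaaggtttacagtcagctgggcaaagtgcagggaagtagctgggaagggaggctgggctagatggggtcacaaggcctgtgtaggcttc
The letters CCAAT, on either strand, stood in 46.4% of the 28 promoters of the family that were matched, in 69.6% of 23 promoters of cholesterol synthesis and uptake, and in 36.6% of the promoters of all tested genes, in windows of 250 bases before to 50 after the start. The letters were as frequent in families with mostly decreases, at 68.9% of 45 promoters of G2 and mitosis, 59.6% of 47 of DNA replication and 50% of 28 of the immediate early genes. The sterol element TCACNCCAC stood in 1 of 28 promoters of fatty acid synthesis (3.57%) and 1 of 23 of cholesterol synthesis and uptake (4.35%), against 1.01% of all tested genes. A match is a description of the letters and not a shown binding site.

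ACSS2 measured 733, 696 and 648 CPM after exosomes and 462, 415 and 320 CPM in controls, with all treated libraries above all controls and a change of 0.80 (SE 0.10, adjusted p = 9.32e-05). ME1, which supplies the NADPH for fatty acid synthesis, measured 105, 110 and 119 CPM against 59.7, 59.7 and 63.4 CPM, a change of 0.87. SREBF1 measured 833, 817 and 774 CPM against 371, 418 and 400 CPM. FASN, the fatty acid synthase, measured 4651, 4715 and 4527 CPM against 2060, 2492 and 2459 CPM. Treated libraries of both stood clear of the controls, with changes of 1.03 and 0.99. SCD, the desaturase that makes oleate, was named after its values were seen because it was the most abundant member per length (1931 FPKM). It measured 11741, 11740 and 12007 CPM against 7901, 7585 and 6423 CPM, a change of 0.70. The exception was FADS2, which desaturates polyunsaturated fatty acids, with 19.2, 19.3 and 20.6 CPM against 25.8, 33.8 and 27.7 CPM, a change of -0.56.

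The other lipid families differed in direction and size. In triglyceride and phospholipid synthesis 11 of 40 members rose and 3 fell, with a median of 0.10. LPCAT3, which places polyunsaturated chains in phospholipids, rose by 0.56, and MGLL, which breaks down monoglycerides, fell by 0.54. In cholesterol synthesis and uptake 9 of 30 rose and 1 fell, with a median of 0.11. INSIG1, the sterol-responsive brake on this pathway, measured 750, 711 and 732 CPM against 507, 452 and 419 CPM (change 0.67, SE 0.08, adjusted p = 3.9e-05). The groups did not overlap. Of 13 targets of the liver X receptors and genes of cholesterol export, 5 rose and 1 fell, with a median of 0.43, and where genes needed a mean of 5 CPM 3 rose and the median was 0.04. MYLIP, which marks lipoprotein receptors for degradation, measured 16.7, 15.2 and 17.8 CPM against 7, 5.78 and 8.61 CPM, a change of 1.21. ABCG1, the partner of ABCA1 in export, rose by 2.61 from under 1 CPM in each control, and SCARB1, a receptor for high density lipoprotein, fell by 0.26. Fatty acid oxidation had 6 increases among 28 members and 1 decrease, ANGPTL4, an inhibitor of lipoprotein lipase, at -0.90. Leaving out control 1, 2 or 3 or hOMF 3 gave 3 increases, and leaving out hOMF 2 gave 2 (2 decreases without hOMF 3). In sphingolipid metabolism 4 of 32 rose (12.5%) and 6 fell (18.8%), around a median of -0.01 that changed sign without TMM scaling, with a mean of 5 CPM required and without control 1. Its increases numbered 2 without control 2 or control 3 and 1 without hOMF 2.

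Cytochromes P450, aldehyde-metabolising enzymes and NRF2 targets were called higher more often than the background. Of 17 cytochromes P450, 7 rose (41.2%) and 0 fell, with a median of 0.49 at a median level of 1.67 FPKM. Of the 17, 10 belonged to the lowest level class, where 11.8% of all genes were called higher and 4.61% lower. The median change of that class was 0.14. CYP1B1 measured 37, 40 and 44.9 CPM against 26.2, 27.2 and 24.3 CPM, a change of 0.65, and CYP4F11, which hydroxylates fatty acids, rose by 0.68. Of 26 aldehyde dehydrogenases and aldo-keto reductases, 11 rose and 1 fell, with a median of 0.31 (7 increases without control 2, and 0 decreases without CAF 3, control 2, control 3, hOMF 1 or hOMF 2). ALDH7A1, which removes aldehydes from lysine breakdown, measured 136, 132 and 139 CPM against 98.3, 101 and 101 CPM, with no overlap and a change of 0.44. ALDH1L1, a folate enzyme of the same family, rose by 0.78. Among 34 targets of NRF2, the regulator of antioxidant defence, 11 rose and 2 fell, with a median of 0.18. PIR, an iron-binding nuclear protein, rose by 0.82. The 2 decreases were FTH1, the ferritin heavy chain, with 6318, 6420 and 5549 CPM against 9206, 9505 and 8324 CPM (change -0.56), and TXNRD1, thioredoxin reductase, at -0.37. Glutathione transferases and peroxidases lay at the backgrounds, with 4 of 36 higher (11.1%) and 4 lower (11.1%), a median of 0.05, 2 increases without control 1 and 2 decreases without hOMF 2. Among 5 metallothioneins only MT2A passed, with 1047, 809 and 633 CPM against 1424, 1699 and 1097 CPM (change -0.76), and a fit without control 3 called 2 of them. STRA6, a retinol transporter, rose by 1.88 from a low level, while 2 of 20 retinoid genes rose and 6 fell around a median of 0.06.

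Among the families with at least 10 tested members, DNA replication had the largest share called lower. Of 55 tested members 32 fell and 0 rose, so 58.2% were called lower against the background of 11.4%, and the median change was -0.43. Promoters of 3 members that fell are shown because they hold the letters TTTNNCGC, like the element bound by E2F factors, the S phase activators. The windows are from RefSeq (GRCh38.p14), run from 150 bases before to 20 after the start site, and carry the match on either strand in capitals. CDC6 loads the replicative helicase, PCNA is the sliding clamp, and DTL, named after its values were seen, guides the destruction of the licensing factor during S phase.
CDC6 promoter, chr17:40287729-40287898, plus strand: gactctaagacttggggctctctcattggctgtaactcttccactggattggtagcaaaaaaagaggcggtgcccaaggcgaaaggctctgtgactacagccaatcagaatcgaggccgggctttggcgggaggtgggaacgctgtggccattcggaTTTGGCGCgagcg
PCNA promoter, chr20:5126603-5126772, minus strand: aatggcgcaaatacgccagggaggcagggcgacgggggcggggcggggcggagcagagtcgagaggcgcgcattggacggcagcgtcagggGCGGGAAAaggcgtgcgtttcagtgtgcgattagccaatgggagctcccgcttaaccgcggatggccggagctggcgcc
DTL promoter, chr1:212035598-212035767, plus strand: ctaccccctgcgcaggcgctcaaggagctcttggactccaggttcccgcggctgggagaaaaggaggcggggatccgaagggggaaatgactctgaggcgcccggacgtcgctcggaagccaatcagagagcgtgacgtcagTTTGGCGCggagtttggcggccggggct
The match starts 7 bases after the start site in CDC6, 59 bases before it in PCNA and 8 before it in DTL. In the windows of 250 bases before to 50 after the start, 24 of 47 matched replication promoters (51.1%) held these letters, against 10.7% of the promoters of all tested genes and 6.9% of all RefSeq promoters. The share was 7.49% among genes called higher, 10.8% among genes called lower and 11.1% among genes not called. Of the 24 members with the letters 18 fell, with a median change of -0.51, and of the 23 without them 11 fell, with a median of -0.34.

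CDC6 measured 18.8, 21 and 24.1 CPM after exosomes against 37.9, 39.4 and 42.2 CPM in controls, a change of -0.90. PCNA measured 38.5, 39.5 and 43.1 CPM against 64.7, 71.1 and 88.8 CPM, a change of -0.89 (SE 0.12, adjusted p = 0.000101). DTL measured 12.8, 14.2 and 17.6 CPM against 25.2, 25.9 and 28 CPM, a change of -0.82. In all 3 genes hOMF 3 was the highest treated library and control 3 the highest control, and the groups did not overlap. FEN1, the flap endonuclease of lagging strand synthesis, fell by 0.89, and MCM4, a subunit of the helicase, by 0.90. Across the family, mean deviations were -0.26, -0.22 and -0.13 in the treated libraries and 0.07, 0.18 and 0.36 in the controls. In bulk RNA a smaller fraction of cells in S phase and less of each transcript per cell cannot be told apart.

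Regulators and suppliers of replication were also called lower more often than the background. Of 32 cyclins, kinases and E2F factors of the G1/S step, 13 fell and 3 rose, with a median of -0.24. TFDP1, the partner of E2F factors, measured 105, 108 and 120 CPM against 152, 164 and 175 CPM, with no overlap and a change of -0.56. E2F7, an atypical repressor of the family, fell by 0.71. The 3 increases were reduced to 1 without control 2, hOMF 1 or hOMF 3 and to 0 without control 3. Of 38 genes of purine and pyrimidine synthesis, 14 fell and 2 rose, with a median of -0.24. CAD, which carries out the first steps of pyrimidine synthesis, measured 31.8, 34.8 and 36.4 CPM against 51.2, 53.8 and 68.6 CPM, a change of -0.75. DTYMK, thymidylate kinase, fell by 0.65 and PNP, which salvages purines, by 0.53, while ADA, adenosine deaminase, rose by 0.57. Leaving out control 3 or hOMF 1 gave 9 decreases and leaving out hOMF 2 gave 8, and 1 increase was called without control 2 or hOMF 2. In homologous recombination and the Fanconi pathway 10 of 43 fell, BLM helicase among them (-0.75), and 3 rose. Decreases numbered 6 without control 3 or hOMF 2, and 1 increase was called without control 2, hOMF 1 or hOMF 2.

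Genes of G2 and mitosis fell in the same direction. Of 58 tested, 22 fell and 0 rose, with a median of -0.25, and 14 fell without hOMF 2. The promoters of MKI67, whose protein coats mitotic chromosomes, and of ZWINT, a kinetochore protein named after its values were seen, are shown for the letters TTTGAA, the cell cycle homology region bound by the DREAM complex. Windows and capitals are as for the replication genes.
MKI67 promoter, chr10:128126404-128126573, minus strand: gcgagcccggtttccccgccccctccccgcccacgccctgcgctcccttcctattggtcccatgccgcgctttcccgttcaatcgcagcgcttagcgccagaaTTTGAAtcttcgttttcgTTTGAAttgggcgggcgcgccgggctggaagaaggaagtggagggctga
ZWINT promoter, chr10:56361240-56361409, minus strand: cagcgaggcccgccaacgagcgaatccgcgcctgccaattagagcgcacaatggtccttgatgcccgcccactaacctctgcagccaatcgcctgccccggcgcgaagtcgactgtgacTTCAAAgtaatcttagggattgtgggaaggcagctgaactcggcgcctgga
These letters stood in 29 of 45 promoters of the family (64.4%) against 9.67% of those of all tested genes and 15.4% of all RefSeq promoters, and in none (0%) of the 47 replication promoters. Decreases were called in 11 of the 29 members with the letters and 4 of the 16 without, and the median changes were -0.25 and -0.24. MKI67 measured 126, 135 and 142 CPM against 171, 198 and 218 CPM, a change of -0.54 (SE 0.09, adjusted p = 0.000869). ZWINT measured 33.7, 35.3 and 35.3 CPM against 43.6, 52.8 and 54.2 CPM, a change of -0.53. CDCA5, which holds sister chromatids together, fell by 0.63, and MYBL2, an activator of mitotic genes, by 0.88. Tubulins fell with them. Of 18 members 10 fell and 1 rose, with a median of -0.41, and some of these genes are close copies that share reads. TUBB4B measured 196, 185 and 200 CPM against 273, 318 and 310 CPM, a change of -0.63, and TUBB6 fell by 0.54.

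Transcripts of ribosome assembly fell while those of the ribosomal proteins themselves showed little change. Of 92 ribosome biogenesis genes 33 fell and 0 rose, with a median of -0.21. All treated libraries lay below all controls in 44 of the 92, against 2407 of all 12470 tested genes. NOLC1, a nucleolar scaffold, measured 88.6, 87.9 and 106 CPM against 122, 137 and 164 CPM, a change of -0.58. NOP16, a nucleolar protein, fell by 0.68 and DDX21, a nucleolar helicase, by 0.41. Without control 3 or without hOMF 2, 18 of the family were called lower. Among 84 cytosolic ribosomal proteins, 1 fell and 0 rose, all changes lay between -0.24 and 0.22, and the median of -0.05 turned positive without TMM scaling and in the FPKM fits. Initiation factors of translation had 9 decreases among 53 (17%), no increase and a median of -0.09. Of the 53, 31 belonged to the highest level class, where 19.1% of all genes were called lower with a median of -0.06. EIF3B, a scaffold of the initiation complex, measured 406, 426 and 433 CPM against 532, 586 and 559 CPM, a change of -0.41. EIF4G1, which bridges the cap and the ribosome, fell by 0.47.

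Transcripts of RNA handling fell in several families at once, with counts that leaned on single libraries. Of 50 core spliceosome genes 15 fell and 3 rose (median -0.14), of 34 SR and hnRNP proteins 11 fell and 2 rose (-0.10), of 31 nucleoporins 10 fell and 0 rose (-0.17), and of 24 karyopherins 8 fell and 0 rose (-0.20). PRPF19, a ubiquitin ligase of the spliceosome, measured 95.5, 96.3 and 108 CPM against 137, 137 and 150 CPM, a change of -0.50. HNRNPAB, an RNA-binding protein, fell by 0.63, KPNA2, an import receptor, by 0.55, and NUP98, a pore protein, by 0.36. PRPF39, a splicing factor of the U1 particle, moved the other way by 0.52. Spliceosome decreases numbered 6 without control 3 or hOMF 2, 7 without hOMF 1 and 9 without CAF 3. SR and hnRNP decreases numbered 7 without control 3, hOMF 1 or hOMF 2, and their increases 1 without CAF 3, control 2 or those 3 libraries. Nucleoporin decreases numbered 5 without control 2, 4 without hOMF 2 and 3 without control 3 or hOMF 1, and karyopherin decreases 5 without control 2 or 3 and 3 without hOMF 1 or 2. The FPKM fits called 8, 7, 3 and 2 decreases in the 4 families.

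Outside complex III, few subunits of the respiratory chain and the mitochondrial ribosome passed. Of 9 complex III genes 1 rose and 1 fell, and this share of 22.2% was near the 23.2% of all genes. None (0) of the 9 was called without control 3, hOMF 2 or hOMF 3. Of 37 complex I subunits 1 passed, of 18 ATP synthase genes 1, of 12 cytochrome c oxidase genes 0 (0 also at an unadjusted p under 0.05) and of 78 mitochondrial ribosomal proteins 5. MRPL49 of the large subunit was the clearest, with 113, 113 and 112 CPM against 156, 157 and 144 CPM, a change of -0.43. Import genes had 6 decreases among 24, with TOMM40, the channel of the outer membrane, at -0.56, and without hOMF 2 only 2 of that family were called lower. Of mitochondrial carriers 4 of 40 rose and 6 fell (3 without hOMF 2), and of mitochondrial aminoacyl-tRNA synthetases 1 of 17 rose and 4 fell. Calls in either direction made up 25% of import genes, 25% of carriers and 29.4% of synthetases, near the 23.2% of all genes. Decreases alone made up 25% of import genes, 15% of carriers and 23.5% of synthetases, above the 11.4% of all genes. For the synthetases, fits that left out any 1 library other than CAF 1 called 0 to 2 decreases. SLC25A27, of the uncoupling protein family, rose by 1.14 from 7.91, 7.05 and 6.06 CPM in controls to 15, 15.7 and 15.4 CPM.

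Several chaperones of the cytosol fell, while most members of their families did not pass. HSPA8, the constitutive heat shock cognate protein, had the largest change among them, with 347, 382 and 433 CPM after exosomes against 636, 693 and 745 CPM in controls. Its change was -0.84 (SE 0.09, adjusted p = 1.74e-05), and the highest treated library lay well below the lowest control. Of 23 heat shock proteins 6 fell and 0 rose, with a median of -0.09, among them HSPH1 (-0.54), a nucleotide exchange factor, and HSP90AA1 (-0.42). DNAJA1, a partner of HSPA8, measured 89.2, 90.9 and 96.5 CPM against 149, 139 and 137 CPM, a change of -0.62. Of the 45 DNAJ co-chaperones and BAG proteins 7 fell (15.6%) and 2 rose, around a median of -0.02 that changed sign without TMM scaling, in the FPKM fits and without hOMF 2. Decreases numbered 4 without hOMF 1 and 3 without hOMF 2, and increases 1 without control 2 or hOMF 2 and 0 without control 3. Of 15 genes of the CCT chaperonin and prefoldin 4 fell, CCT5 by 0.34, and 2 were called lower without hOMF 1 or hOMF 2. Of 32 ubiquitin-conjugating enzymes 8 fell and 0 rose (median -0.16), UBE2N by 0.44, and 5 fell without control 3. Of 46 proteasome genes 8 fell (17.4%) and 2 rose (4.35%) around a median of -0.06, which changed sign in the FPKM fits. Of the 46, 28 belonged to the highest level class, where 19.1% of all genes were called lower with a median of -0.06. Without any 1 of the 3 treated or 3 control libraries none (0) of the proteasome increases was called. Proteasome decreases numbered 4 without control 2, control 3 or hOMF 1, 3 without hOMF 2 and 5 without hOMF 3. Stress genes went both ways. Of 36 targets of ATF4, the amino acid stress regulator, 6 rose and 7 fell (4 without control 2 or hOMF 2), and their median of -0.05 changed sign without TMM scaling and in the FPKM fits. NUPR1, a small stress protein, rose by 0.93 and DDIT4, an inhibitor of mTOR complex signalling, by 0.50, whereas STC2, a secreted glycoprotein, fell by 0.66.

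Glycolysis and hypoxia targets were lower in part, and the transcript of HIF1A, a transcription factor of the hypoxia response, was higher. Of 45 genes 14 fell and 5 rose, with a median of -0.16. NDRG1, a hypoxia target, measured 649, 718 and 662 CPM against 1365, 1075 and 1028 CPM, a change of -0.77. LDHA, which makes lactate, measured 1745, 1864 and 1824 CPM against 2680, 2699 and 2300 CPM, a change of -0.50. HIF1A measured 520, 562 and 625 CPM against 423, 409 and 400 CPM, a change of 0.47. In each of these genes the groups stayed apart. CA9, an anhydrase at the cell surface, fell by 0.63 and PKM, pyruvate kinase, by 0.40. Without hOMF 2, 9 decreases and 1 increase were called, and the increases numbered 1 without control 3 and 3 without control 2, hOMF 1 or hOMF 3.

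Polyamine and arginine genes had 8 decreases and 3 increases among 23 and a median of -0.09. SRM, spermidine synthase, measured 57.7, 50.3 and 58.2 CPM against 74.4, 89.8 and 100 CPM, a change of -0.67, and AMD1, which prepares its substrate, fell by 0.44. Decreases numbered 4 without control 2, 5 without control 3 or hOMF 1 and 3 without hOMF 2. Of 28 amino acid transporters 10 fell and 4 rose, with a median of -0.10. SLC7A1, the arginine importer, measured 223, 225 and 241 CPM against 307, 314 and 311 CPM, a change of -0.44, and SLC38A6 rose by 0.77. Without hOMF 2, 6 decreases and 2 increases were called, and 2 increases without control 2 or hOMF 3.

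Transcription factors of the immediate early class, which growth factors switch on within minutes, were lower as a group, and so were the phosphatases that switch the same kinases off. Of 37 immediate early genes 20 fell and 1 rose, with a median of -0.27, and 12 fell without control 3 or without hOMF 3. MYC, the growth regulator, measured 206, 204 and 202 CPM against 292, 344 and 373 CPM, a change of -0.72. KLF6 measured 90.8, 82.6 and 92.4 CPM against 170, 157 and 138 CPM, a change of -0.80 (SE 0.08, adjusted p = 1.74e-05). FOSL1, a subunit of AP-1, fell by 0.83 and MAFK, a small partner of NRF2, by 0.61. ID1, an inhibitor of differentiation factors, was the increase, with 38.1, 30.6 and 28.7 CPM against 17.8, 18.9 and 20.3 CPM, a change of 0.77. Of 18 dual-specificity phosphatases 10 fell and 0 rose, with a median of -0.38. DUSP6, which removes phosphate from ERK, measured 36.3, 32.5 and 34.1 CPM against 55.3, 57.7 and 51.3 CPM, a change of -0.67, and DUSP5, its nuclear relative, measured 111, 110 and 107 CPM against 158, 175 and 171 CPM, a change of -0.61. The 3 treated libraries of both lay well under the controls and close to each other. The Sprouty and SPRED genes, other feedback inhibitors of this route, showed no call among 7 (1 higher and 1 lower at an unadjusted p under 0.05, and 0 with DESeq2).

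Ligands and receptors of growth factors held calls in both directions. Of 21 genes of the EGFR family and its ligands 6 rose and 4 fell. HBEGF, a ligand, measured 70.9, 65.1 and 70.5 CPM against 92.2, 133 and 113 CPM, a change of -0.71, and ERRFI1, an inhibitor of the receptor, measured 168, 164 and 165 CPM against 268, 271 and 247 CPM, a change of -0.66. The increases numbered 3 without control 2, hOMF 1 or hOMF 2 and 2 without control 3. Of 32 other growth factor genes 6 rose and 4 fell. PDGFA, a mitogen for fibroblasts, measured 54.5, 48 and 41.4 CPM against 28.7, 25.6 and 26.8 CPM, a change of 0.83. FGFR3 rose by 0.70, and IGFBP3, which binds insulin-like growth factors and was among the most abundant of these transcripts, fell from 8014, 7815 and 6983 CPM to 5355, 5246 and 4779 CPM, a change of -0.57. In the TGF-beta and BMP family 6 rose and 6 fell among 46, 13% each and near the backgrounds of 11.8% and 11.4%. INHBA, the activin subunit, fell by 0.84 and FST, which binds activin, by 0.90. DLL1, a Notch ligand, rose by 0.53. KREMEN2, a receptor of the Wnt inhibitor DKK1, rose by 1.07, and DKK1 itself fell by 0.73.

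Interleukins and colony-stimulating factors were called lower more often than the background. Of 20 interleukins and colony-stimulating factors 9 fell and 0 rose, with a median of -0.43, and 5 fell where genes needed a mean of 5 CPM. The promoters of IL6, a cytokine of acute inflammation, and IL32, named after its values were seen, are shown for the letters GGNNTTTCC, which resemble the NF-kB element. Windows and capitals are as above.
IL6 promoter, chr7:22727050-22727219, plus strand: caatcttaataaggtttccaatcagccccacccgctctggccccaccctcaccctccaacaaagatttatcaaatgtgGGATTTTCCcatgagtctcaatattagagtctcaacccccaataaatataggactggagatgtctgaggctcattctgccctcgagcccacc
IL32 promoter, chr16:3065253-3065422, plus strand: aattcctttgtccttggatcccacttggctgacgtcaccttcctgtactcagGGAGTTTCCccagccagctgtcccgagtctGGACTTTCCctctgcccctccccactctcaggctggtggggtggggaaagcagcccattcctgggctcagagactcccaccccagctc
The match starts 72 bases before the start site of IL6, and the pair in IL32 starts 98 and 68 bases before it. Promoters of 3 of 13 matched family members (23.1%) held these letters, against 6.73% of those of all tested genes and 6.26% of all RefSeq promoters. Of the 3 with the letters 2 were called lower, with a median of -0.48, and of the 10 without them 5, with a median of -0.55. The AP-1 element TGANTCA stood in 4 of the 13 (30.8%), against 4.52% of all tested genes. IL6 measured 3.38, 3.15 and 3.52 CPM after exosomes against 9.64, 8.76 and 10.2 CPM in controls, a change of -1.51 (SE 0.18, adjusted p = 3.9e-05). IL32, far more abundant, measured 84.7, 77.4 and 68.4 CPM against 91.4, 95.8 and 94.1 CPM, a change of -0.29 that was not called without control 2, hOMF 2 or hOMF 3. CSF2, a growth factor of granulocytes and macrophages, measured 22.4, 19.7 and 19.7 CPM against 55.7, 65.7 and 58.9 CPM, with every treated library less than every control. IL24 and IL17C, both at a few CPM, changed by -1.51 and -1.57.

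Chemokines split into those that fell and those that rose. Of 14 members 5 fell and 3 rose, with a median of -0.09. CXCL1, a neutrophil attractant, measured 435, 410 and 350 CPM against 707, 859 and 747 CPM, a change of -0.95 (SE 0.09, adjusted p = 1.24e-05). CXCL8, from the same gene cluster, measured 226, 214 and 210 CPM against 341, 378 and 341 CPM, a change of -0.70. CCL2, a monocyte attractant, fell by 0.48. CX3CL1, a membrane-bound chemokine, moved the other way, with 397, 356 and 349 CPM against 281, 276 and 245 CPM and a change of 0.46. XCL1 and CXCL11, attractants of lymphocytes, rose by 0.78 and 0.70. Of 32 genes of the NF-kB pathway 8 fell and 2 rose (5 decreases without control 2, hOMF 2 or hOMF 3, and 1 increase without control 2, hOMF 1 or hOMF 2), with a median of -0.12. TNFAIP3, a feedback inhibitor, measured 199, 196 and 196 CPM against 283, 288 and 277 CPM, a change of -0.52, and NFKBIZ, a nuclear co-regulator, fell by 0.64. Among receptors of the TNF superfamily 8 of 18 rose and 2 fell, with a median of 0.29 and 5 increases without hOMF 1 or hOMF 2, while 1 decrease was called without CAF 3, control 2, control 3 or any 1 treated library. NGFR, the neurotrophin receptor, rose by 1.17 and TNFRSF12A, the receptor for TWEAK, fell by 0.65. Of 9 ligands of the superfamily 3 fell, TNF by 0.65, and 2 rose (1 without control 3).

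Transcripts of antigen presentation by MHC class II were called higher more often than the background. Of 18 tested members 7 rose and 0 fell, and the median was 0.37. All treated libraries lay above all controls in 13 of the 18, against 2523 of all 12470 tested genes. Without TMM scaling 11 rose, and in the FPKM fits 11 or 12. CIITA, the master regulator of the class, measured 12.1, 13.3 and 11.2 CPM against 7.55, 8.22 and 7.9 CPM, a change of 0.62. HLA-DRA measured 142, 136 and 130 CPM against 102, 111 and 107 CPM, a change of 0.35, and HLA-DQB1 rose by 0.50. Several HLA genes are close copies that share reads, so single members are uncertain. Interferon-stimulated genes had 11 increases and 4 decreases among 54 and a median of 0.01 that changed sign with the GC and length correction and without control 1 or control 3. OASL rose by 1.15 and OAS3, a synthetase of the same antiviral system, fell by 0.69. Increases of that family numbered 6 without control 2, 5 without control 3, 7 without hOMF 1 and 3 without hOMF 2. Of 34 Toll-like receptor and inflammasome genes 7 rose and 7 fell (4 decreases without hOMF 2). NLRP1, the inflammasome sensor of keratinocytes, measured 38.4, 39.5 and 37.8 CPM against 18.4, 23.5 and 21.2 CPM, a change of 0.87, and IRAK1, a kinase below the receptors, fell by 0.65.

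The epithelial program changed family by family. Of 12 antimicrobial proteins 6 fell and 0 rose, with a median of -0.64, and all 12 estimates were below 0. RNASE7, a ribonuclease that kills bacteria at epithelial surfaces, measured 149, 152 and 150 CPM against 413, 373 and 290 CPM, a change of -1.25 (SE 0.10, adjusted p = 2.96e-06). S100 proteins, several of which count among the antimicrobial proteins too, had 7 decreases and 1 increase among 14 and a median of -0.41. S100A7 measured 25.9, 25.5 and 23.2 CPM against 58, 72.1 and 69.7 CPM. S100A9, a subunit of calprotectin, measured 557, 575 and 444 CPM against 879, 914 and 935 CPM, a change of -0.79, and S100A8, the other subunit, fell by 0.65. In these 3 genes all treated libraries lay under all controls. S100A14, from the same gene cluster, was the increase, with 221, 200 and 214 CPM against 158, 147 and 134 CPM, a change of 0.53.

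Keratins went the other way. Of 15 tested 6 rose and 1 fell, with a median of 0.48, and 3 rose without hOMF 1. KRT15, a basal keratin, measured 115, 109 and 88.1 CPM against 77.1, 79.7 and 67.9 CPM, a change of 0.48, and KRT80 fell by 0.35. Family means were 0.26, 0.20 and 0.05 in the treated libraries and -0.13, -0.06 and -0.32 in the controls. Among 21 kallikreins and epithelial proteases 9 rose and 3 fell, with a median of 0.27. PRSS22, a serine protease of airway epithelium, measured 98.5, 96.1 and 90.3 CPM against 59, 70.4 and 73.4 CPM, a change of 0.49. Increases there numbered 5 without control 2 or hOMF 2 and 4 without control 3 or hOMF 1, and decreases 1 without control 2, hOMF 2 or hOMF 3. TGM2, a crosslinking enzyme of the matrix and cell surface, fell by 0.49.

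Junction families differed from each other in count. Of 11 connexins and pannexins 4 fell and 0 rose, with a median of -0.24. GJB2, which forms gap junctions of keratinocytes, measured 156, 162 and 151 CPM against 239, 211 and 209 CPM, a change of -0.49, and the groups stayed apart. None (0) of 24 desmosome and adherens junction genes passed in the edgeR test, where changes lay between -0.24 and 0.23. At an unadjusted p under 0.05 there were 4 on each side, and DESeq2 called 3 lower. TJP3, a scaffold of tight junctions, rose by 0.84. LAMA5, the laminin chain of epithelial basement membrane, measured 606, 566 and 513 CPM against 354, 386 and 354 CPM, a change of 0.62 (SE 0.08, adjusted p = 5.25e-05).

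Collagens rose more often than the background. Of 22 collagens 9 rose and 1 fell, with a median of 0.30 and a median level of 10.7 FPKM. COL6A1 measured 58, 57 and 46.2 CPM against 38.2, 38.9 and 30 CPM, a change of 0.59 with no overlap. The nearest libraries of the groups were hOMF 3 and control 2. SERPINF1, a secreted inhibitor of vessel growth, rose by 1.55, and ADAM12, a metalloprotease, fell by 0.87. The decrease among collagens, COL17A1 of the hemidesmosome, measured 902, 911 and 949 CPM against 1257, 1204 and 1004 CPM and was not called without control 1, control 2, hOMF 1 or hOMF 2. The list of fibroblast markers holds several collagens, COL6A1 and COL6A2 included, and is not independent of that family. Of its 10 tested members, 4 rose (COL6A1, COL6A2, ACTA2 and LUM) and 0 fell, with COL6A2 not called without hOMF 1 or hOMF 2 and LUM not without hOMF 2, and the summed level of the list was 341 to 399 CPM in treated libraries and 315 to 356 CPM in controls, of which VIM gave 38.1 CPM in control 3. The part of these markers in the collagen result was not tested.

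Solute carriers and calcium and sodium channels were called higher more often than the background. Potassium channels lay closer to it, with 4 of 26 higher (15.4%) and 2 lower (7.69%). Of 141 solute carriers outside the amino acid and mitochondrial families 38 rose (27%) and 17 fell (12.1%), with a median of 0.08. Increases numbered 24 without control 3 and 21 without hOMF 2, where 11 decreases were called. SLC52A1, a riboflavin transporter, rose by 1.06 and SLC50A1, a sugar transporter, by 0.64. SLCO4A1, a carrier of organic anions, measured 178, 187 and 157 CPM against 276, 312 and 319 CPM, a change of -0.80. Of 30 calcium and sodium channels 9 rose (30%) and 4 fell (13.3%), with 1 decrease called without control 3 or hOMF 2 and 2 without control 2 or hOMF 3. SCNN1A, a subunit of the epithelial sodium channel, measured 494, 461 and 440 CPM against 275, 320 and 258 CPM, a change of 0.71 (SE 0.08, adjusted p = 4.2e-05). SGK1, a kinase that keeps this channel at the cell surface, fell by 0.61.

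Tetraspanins, membrane organisers that are also common on exosomes, had 6 increases and 2 decreases among 20 and a median of 0.07. CD9 measured 586, 565 and 517 CPM against 426, 387 and 329 CPM, with no overlap and a change of 0.55. The 2 decreases were reduced to 1 without control 1, 2 or 3 or hOMF 1 and to 0 without hOMF 2. Among 59 lysosomal genes 11 rose (18.6%) and 7 fell (11.9%), with increases down to 5, 3, 6 and 4 without control 2, control 3, hOMF 1 and hOMF 2. CTSB, cathepsin B, fell from 3434, 2976 and 3081 CPM to 2441, 2456 and 2343 CPM, a change of -0.39. Families of vesicle traffic had fewer calls than the 23.2% of all genes, with 19.6% of RAB proteins, 15.6% of ESCRT genes, 13.5% of coat and TRAPP genes and 8.33% of SNARE proteins called. Of 36 SNARE proteins 1 rose, STX16 of endosome to Golgi traffic by 0.63, and 2 fell. Without CAF 2, 3 of them were called higher, and without control 1, control 3 or hOMF 3, 2.

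The largest family, the ZNF zinc finger proteins, did not depart from the background on the higher side. Of 339 tested 37 rose (10.9%) and 15 fell (4.42%), with a median of 0.08 at a median level of 2.55 FPKM. ZNF558 measured 41.7, 39.4 and 39.4 CPM against 25.9, 24.3 and 24 CPM, a change of 0.70, and ZNF207, a spindle-associated member, fell by 0.48. Increases numbered 21, 16, 24 and 14 without control 2, control 3, hOMF 1 and hOMF 2, and decreases 6 without control 3 and 9 without hOMF 1 or hOMF 3. HOX genes had 6 increases (20.7%) and no decrease among 29 and a median of 0.32. Of the 29, 21 belonged to the lowest level class, where 11.8% of all genes were called higher and 4.61% lower. The median change of that class was 0.14. HOXD9 measured 46.8, 47.2 and 34.2 CPM against 30, 25.5 and 26.3 CPM, a change of 0.65. Without control 3, hOMF 1 or hOMF 2 only 2 HOX genes were called higher. TP73, a relative of p53 in squamous epithelium, rose by 0.68, and HDAC6, a deacetylase of tubulin, by 0.62, while HDAC9 fell by 0.59 and NR2F2, an orphan nuclear receptor, by 0.57.

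**Figure D4:**
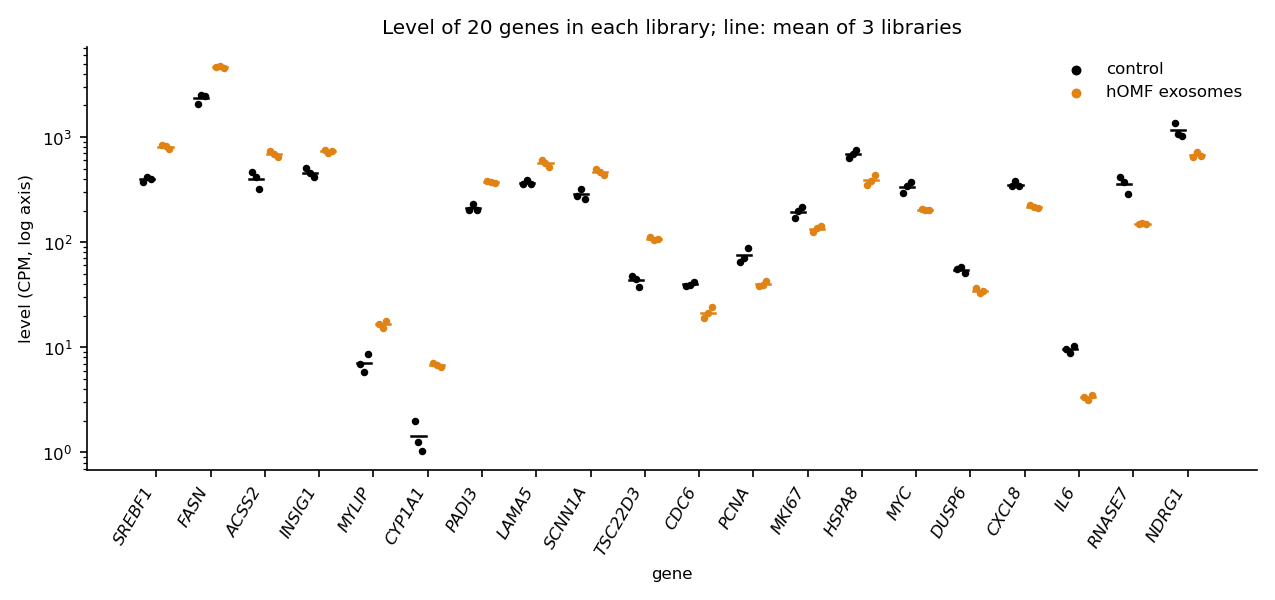
CPM on a log axis in the 3 hOMF exosome and 3 control libraries for 20 genes, with 1 point per library and a line at the group mean. For each gene the groups do not overlap, as for HSPA8 (347 to 433 CPM against 636 to 745 CPM) and SCNN1A (440 to 494 CPM against 258 to 320 CPM). The genes were chosen among called genes, so this separation is no finding of its own.

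The CAF exosome group shares its controls with the hOMF exosome group, so the values of both are given side by side only. In fatty acid synthesis 14 of 30 members rose after hOMF exosomes and 13 after CAF exosomes, each with a median of 0.29. Replication genes had 32 and 25 decreases and medians of -0.43 and -0.34, mitotic genes 22 and 27 decreases and medians of -0.25 and -0.32. Ribosome biogenesis had 33 decreases after hOMF and 13 after CAF exosomes, with medians of -0.21 and -0.15. Connexins and pannexins had 4 decreases after hOMF exosomes and 1 after CAF exosomes, with medians of -0.24 and 0.03. A tested difference between the exosome groups was called for 2 of 12470 genes (0.016%), with 947 genes at an unadjusted p under 0.05, and DESeq2 called 29. The median absolute difference between the exosome groups was 0.08. The median 95% interval of a single gene, not adjusted for the number of genes tested, reached 0.20 on either side. Passing the adjusted threshold took more, as GJB2 at -0.52 (SE 0.08) had an edgeR adjusted p of 0.0439. Differences above 0.20 could therefore also go uncalled.

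The 2 called genes were GJB2 and ZNF114, a zinc finger gene. GJB2 measured 156, 162 and 151 CPM after hOMF exosomes and 247, 216 and 211 CPM after CAF exosomes, where it lay at the control level of 239, 211 and 209 CPM. The difference of hOMF minus CAF was -0.52 (SE 0.08, adjusted p = 0.0439). ZNF114 measured 51.3, 56.4 and 54.7 CPM after hOMF and 38.5, 40.5 and 35.2 CPM after CAF exosomes, with controls at 65.3, 62.8 and 66.4 CPM, a difference of 0.51 (SE 0.08, adjusted p = 0.0439). Its deposited counts are not whole numbers in 8 of 9 libraries, as RSEM writes them where reads are shared with a similar sequence, so its value is uncertain. Fits without hOMF 1, hOMF 2, hOMF 3, CAF 1, CAF 2 or control 2 called 0 genes between the exosome groups, those without CAF 3 or control 1 called 1, and the one without control 3 called 8. For other genes of the response the exosome groups were not called apart. TSC22D3 measured 77.3, 78.1 and 81.9 CPM after CAF exosomes, between its hOMF exosome and control values, and PADI3 302, 310 and 322 CPM, likewise between them.

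**Figure D5:**
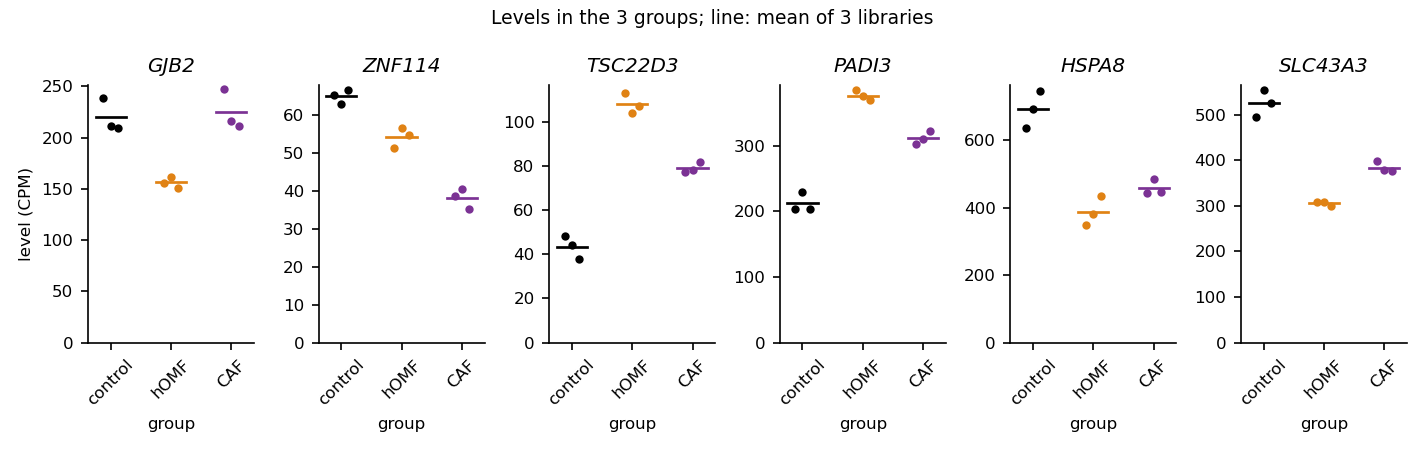
CPM of 6 genes in the control, hOMF exosome and CAF exosome libraries, 1 point per library with a line at the group mean. GJB2 is low in the hOMF exosome group (151 to 162 CPM), while its CAF exosome libraries (211 to 247 CPM) overlap the controls.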

How the data were processed

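RNA of Cal-27 cells was measured in 3 hOMF exosome, 3 CAF exosome and 3 control libraries, as paired reads of 150 nt from 5 ug of RNA. Expected counts per gene were made by the authors with RSEM 1.2.8 and Bowtie2 2.2.5, per the submitters' processing notes, and the authors also deposited FPKM. Those notes name the mouse build mm10 although the identifiers are human, so the build is uncertain and no gene coordinates are given beside promoter windows of RefSeq. Between 90.5% and 92% of the expected counts were whole within 0.001, and all were rounded for the tests. Library totals were 11185672 to 12779101, which gave a median SE of 0.08 in the highest level class and 0.25 in the lowest.

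Genes were kept by filterByExpr (count of at least 10, total of at least 15), scaled by TMM and fitted with edgeR 4.0.16 in R 4.3.3 (quasi-likelihood, group only, all 9 libraries, 6 residual degrees of freedom, two-sided, Benjamini-Hochberg over 12470 genes, adjusted p under 0.05). CPM used the TMM totals. Every SE is the absolute log2 change divided by the square root of F. Alternatives were DESeq2 1.42.0, limma 3.58.1 (voom, and on log2(FPKM + 1) or + 0.1), other scalings and filters, a GC and length correction (values for 99.1% of genes), a replicate block and leaving out each library. The members described and the 143 gene lists were chosen with earlier results of these data known, and lists are described by counts and medians without a test. From each list up to 4 called genes with the smallest p in each direction could be named, and 3 in each direction per level class where the groups did not overlap. Genes sharing reads with a close copy and uncharacterised genes were passed over, and genes outside the rule are marked. A few items are not reported here. Promoters were matched by symbol for 10202 tested genes. Figures were drawn with matplotlib 3.10.9.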

Additional observations from a re-analysis of the deposited data

Results flagged for a closer look

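GJB2 and ZNF114 differed between the 2 exosome groups by the test of that difference itself. For GJB2 the difference of hOMF minus CAF exosomes was -0.52 (SE 0.08, adjusted p = 0.0439 in edgeR, over 12470 genes), with all 3 hOMF exosome libraries below all CAF exosome libraries. For ZNF114 it was 0.51 (SE 0.08, adjusted p = 0.0439 in edgeR), with all 3 hOMF exosome libraries above all CAF exosome libraries. GJB2 was called in 8 and ZNF114 in 6 of 19 settings.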

How the results depend on the processing

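Of the genes named, all kept their direction and their call in every setting that tested them, except COL17A1, COL6A2, LUM, IL32 and the leukocyte marker CORO1A, whose lost calls are given with them, and ZNF114, whose decrease against control was lost without control 3 or hOMF 1, without TMM scaling and in the FPKM fits. Leaving out 1 library at a time gave 1695 to 3096 called genes against control, 884 to 1607 higher and 811 to 1495 lower. The FPKM fits called 824 (pseudocount 1) and 826 (pseudocount 0.1) lower, and the cause was not tested. Without TMM scaling 67% of the calls were increases, in the FPKM fits 68.7% and 69%, and with the GC and length correction 42.7%, against 50.9%. Between the exosome groups, DESeq2 called 29 genes, the GC and length correction 11, and fits without TMM scaling, by voom and on FPKM 0, while leaving out 1 library gave 0 to 8. The fit without any filter called 3. Deviations of replicates with the same number were weakly correlated (-0.0297, 0.0912 and -0.0131). With 3 libraries per group this cannot exclude that the numbers pair the samples. A replicate block gave 1385 higher and 1333 lower calls. With 10 level classes the share of calls that were increases differed by 41.4 percentage points between the lowest and highest class, against 38.6 with 5. Low counts limited what could be called, with a median SE of 0.25 in the lowest class. Several of these alternatives were added after seeing the data. For the comparison with control these were the fits without a CAF exosome library, and for the exosome groups those without a control library. For the level classes they were all alternatives except the 10 classes.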
